A study of Mus musculus with 2 samples.

Results

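Regulated exocytosis is the release of stored hormone from secretory granules when calcium enters the cell, and the genes described here are 37 that encode its machinery. They were matched by symbol in the gene list shared by both libraries, and all 37 were found among 31053 genes. Single-cell RNA was sequenced from pancreatic islets of male C57/B6 mice that were 16 weeks old. The WT library came from mice labelled wild-type, for which the labels name no diet, and the HFD library from mice given a diet with 60% of its kcal as fat for 10 weeks from 6 weeks of age. Per the study's methods, islets of 4 mice were pooled for each library. There is therefore 1 sample per group, diet cannot be told apart from mouse pool, preparation or library, and no test between WT and HFD was possible.

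In a regulated secretory cell, granules are brought to the plasma membrane by small GTPases of the Rab3 and Rab27 groups and their effectors. Priming factors such as RIM, Munc13 and CAPS proteins then ready the granule. Fusion is driven by a SNARE complex, in which a VAMP on the granule zips together with a syntaxin and SNAP-25 or SNAP-23 on the target membrane, with Munc18 proteins as partners of the syntaxin. Synaptotagmins, complexins and Doc2 proteins tie fusion to calcium. NSF and α-SNAP afterwards take the complex apart so that it can be used again. Neurons and endocrine cells share many isoforms of these families, while cells that secrete without a trigger often use others.

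The libraries held 3895 (WT) and 8951 (HFD) barcodes with 73843674 and 94375138 unique molecular identifiers (UMIs), each UMI standing for 1 captured transcript. Of these barcodes, 2498 and 6672 were kept, with medians of 24030 and 10919 UMIs, so the WT cells were sampled more deeply. Clusters, built without the members and without hormone genes, were named by marker genes as β-like (1723 WT and 5550 HFD cells), α-like (60 and 211), δ-like (53 and 116) and non-endocrine (357 and 429, mainly endothelial-like, fibroblast-like, macrophage-like, T-like and ductal-like). Clusters left unnamed held 11.6% and 5.13% of the kept cells, most of them in clusters nearest to β by their marker score. In the largest, the leading genes, Rbp4, Sst, Pyy and Ppy first, held more markers of another class than of β. The others nearest to β had few UMIs for their library and no β marker among their leading genes. Most clusters named β-like also had no β marker among their leading genes. The labelled tissue, islets, was borne out by insulin transcripts, which made up 61.2% and 57.4% of all UMIs in β-like cells, 7.61% and 3.17% in α-like, 2.67% and 2.86% in δ-like and 2.14% and 2.09% in non-endocrine cells. Levels below are UMIs summed over a class and scaled to the class total as counts per 1e6 UMIs (CPM), and intervals are exact 95% intervals that cover counting error only. The 3′ counting records 1 UMI per captured transcript whatever its length, and levels of different genes are set side by side as counted. Whether different genes were captured equally well was not checked, so rankings and shares across genes describe counts.

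Sequences are shown for 2 members whose start regions hold letters of the RE1 element, the site bound by REST, a repressor that keeps many neuronal genes silent outside neurons. They are given because both members, Ptprn2 and Unc13a, stood at least 4-fold above non-endocrine cells in every endocrine class. RefSeq promoter windows, from 250 bases before to 50 after each start on GRCm38.p6, were found for 26 of the 37 members. The motif parts searched on both strands were TTCAGCACC and GGACAGCG, which do not overlap, and the search was chosen after levels had been seen. The first was in the windows of 117 of 27025 genes (0.433%), the second in 399 (1.48%) and both in 7 (0.0259%), 2 of which are members. Capitals mark the motif letters, which lie on the opposite strand and so read reversed and complemented.
Ptprn2: cggtggCGCTGTCCGGTGCTGAAgctcggc
Unc13a: ggCGCTGTCCgcgcccccGGTGCTGAAgcg
The Ptprn2 stretch is chr12:116485719-116485748 on the plus strand and the Unc13a stretch chr8:71671724-71671753 on the minus strand. Both overlap exon 1 of their gene in the annotation. The Unc13a stretch lies within the 5′ UTR of 1 transcript, and the Ptprn2 stretch reaches from before the annotated 5′ UTR into it. The parts are adjacent in Ptprn2, with 0 bases between them, and 8 bases apart in Unc13a. The search set no spacing between the parts, so neither stretch is shown to be a whole RE1 element. A match describes these letters and shows no binding, and a window without them says nothing about REST.

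The endocrine classes and the non-endocrine cells differed in part of the machinery, and how many members this held depended on scaling and doublet handling. With a ratio of at least 4 in both libraries as the threshold, 13 of 36 members that had at least 10 UMIs were above non-endocrine cells in β-like cells, where 2.70% of all genes were. In α-like cells 14 of 34 members passed against 4.01% of all genes, and in δ-like cells 15 of 33 against 5.38%. These members were picked for a role in endocrine secretion, so the excess over the background describes the list. Cadps, Cplx2, Ptprn, Ptprn2, Rab27a, Rab3b, Rims2, Snap25, Syt13, Syt4 and Unc13a, 11 in all, passed in all 3 endocrine classes. Another 19 members passed in none, among them every VAMP and syntaxin of the list. In the opposite direction Snap23 was the 1 member of 36 at least 4-fold below non-endocrine cells in β-like cells, where 23.7% of all genes were. Counting error set a limit on these calls: the whole interval lay above 4 in both libraries for 7 of the 13 members called in β-like cells, 10 of 14 in α-like and 9 of 15 in δ-like. Doublets also mattered. When no barcode was left out for its doublet score, the insulin share of non-endocrine cells was 4.87% and 10.4% and the count in β-like cells was 5 of 36, beside 1.84% of all genes.

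Insulin fills most of a β-like cell's UMIs and lowers the CPM of all its other genes. UMIs outside hormone and mitochondrial genes were 30.2% and 32.4% of the total in β-like cells and 93.7% in non-endocrine cells of both libraries. When levels were scaled to those UMIs, 21 members passed in β-like cells against 9.20% of all genes. The 37 members together made up 1594 CPM in WT and 1606 in HFD β-like cells, 2007 and 1784 in α-like, 2678 and 2335 in δ-like, and 881 and 747 in non-endocrine cells. Scaled to UMIs outside hormone and mitochondrial genes, the sums were 5271 and 4963 in β-like and 3512 and 3130 in α-like cells. They were 4231 and 3628 in δ-like and 940 and 797 in non-endocrine cells, so the order of the endocrine classes depended on the scale.

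**Figure D1:**
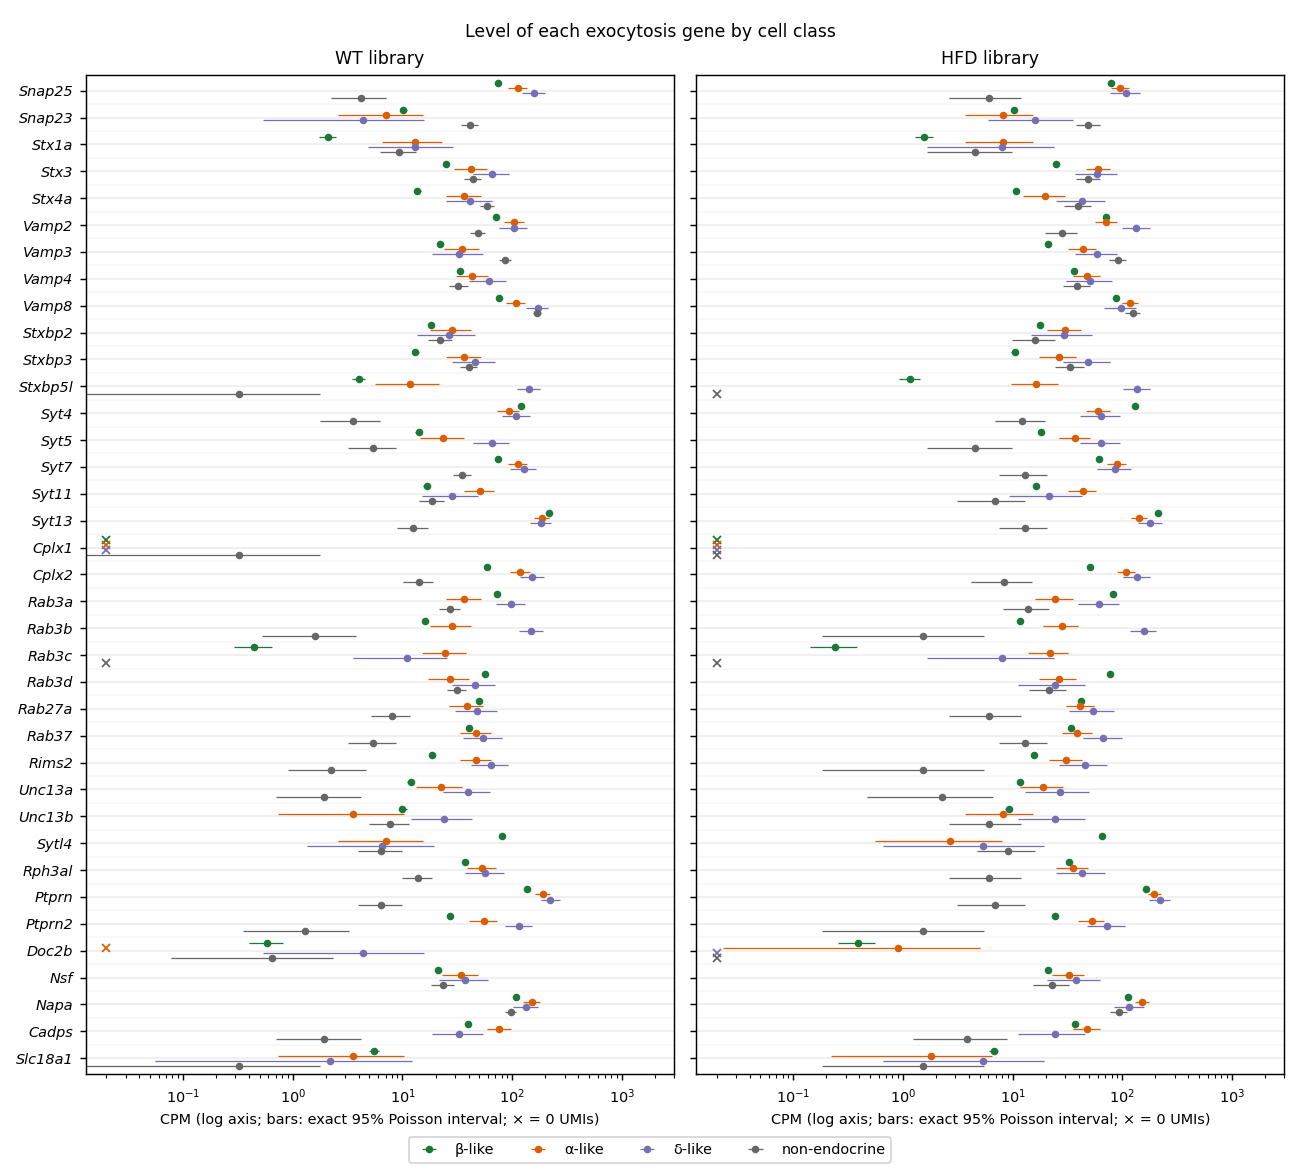
Levels of the members (CPM, log scale) in β-like, α-like, δ-like and non-endocrine cells, for WT and HFD. Points are summed UMIs per class and library with exact 95% counting intervals, and Snap25, Syt13 and Ptprn stand far above the non-endocrine points while Snap23 lies below them.

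Among the target-membrane SNAREs, Snap25 and Snap23 were exchanged between cell classes. Snap25 encodes the SNAP-25 of neurons and endocrine cells (chr2:136713453-136782428, plus strand). It stood at 74.5 CPM in WT and 78.4 in HFD β-like cells, 113 and 95.7 in α-like cells, 158 and 107 in δ-like cells, and 4.16 and 6.08 in non-endocrine cells. The β-like level was 17.9-fold the non-endocrine one in WT (95% interval 10.5 to 33.6) and 12.9-fold in HFD (6.54 to 29.9). Snap23, the widely expressed homologue, had the opposite order, with 10.2 and 10.3 CPM in β-like cells and 41.0 and 48.7 in non-endocrine cells. Its ratio of β-like to non-endocrine cells was 0.249 (0.206 to 0.304) in WT and 0.211 (0.163 to 0.277) in HFD, and these were 0.772 and 0.611 on the scale without hormone UMIs, short of the 4-fold threshold.

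The syntaxins did not separate the classes in that way. Stx1a, the syntaxin of neuronal release, was at 2.09 and 1.55 CPM in β-like cells, under the 12.9 and 8.12 of α-like, the 13.1 and 8.06 of δ-like and the 9.29 and 4.56 of non-endocrine cells. Stx3 was the most abundant of the 3 in β-like cells, at 24.9 and 24.8 CPM, and was 43.5 and 48.7 in non-endocrine cells. Stx4a, a syntaxin of the plasma membrane in most cell types, was at 13.6 and 10.7 CPM in β-like and 59.2 and 39.5 in non-endocrine cells. Scaled without hormone UMIs, the β-like to non-endocrine ratios were 1.77 and 1.48 for Stx3. They were 0.711 and 0.786 for Stx4a and 0.699 and 0.987 for Stx1a.

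The VAMPs of the granule side were present in every class. Vamp2, the main VAMP of synaptic vesicles and insulin granules, was at 70.8 and 70.3 CPM in β-like, 104 and 71.3 in α-like, 103 and 134 in δ-like and 48.4 and 28.1 in non-endocrine cells. Its ratio to non-endocrine cells in β-like cells was 1.46 and 2.50, and 4.54 and 7.23 on the scale without hormone UMIs. Vamp8, a VAMP of endosomes and of exocrine and blood cell granules, was as abundant in β-like cells (75.4 and 87.0 CPM) as Vamp2 and reached 169 and 125 in non-endocrine cells. Vamp3, of recycling endosomes, was lower in β-like cells (22.0 and 20.9 CPM) than in non-endocrine cells (85.8 and 90.5). Vamp4, of the trans-Golgi network, was close to level on the CPM scale, at 33.7 and 36.6 CPM in β-like against 32.3 and 38.8 in non-endocrine cells. On the scale without hormone UMIs the β-like to non-endocrine ratios were 3.23 and 2.74 for Vamp4. They were 1.38 and 2.02 for Vamp8 and 0.793 and 0.669 for Vamp3.

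Of the Munc18 relatives, Stxbp2 was at 18.1 and 17.8 CPM in β-like and 22.1 and 16.0 in non-endocrine cells, and Stxbp3 at 13.1 and 10.5 against 40.3 and 33.5. Stxbp5l behaved differently from both. It encodes tomosyn-2, which binds syntaxin and SNAP-25 without driving fusion and restrains release (chr16:37114942-37384962, minus strand). In δ-like cells it was at 142 CPM (65 UMIs) in WT and 137 (51 UMIs) in HFD, in α-like cells at 11.7 and 16.2, and in β-like cells at 4.00 and 1.16. Non-endocrine cells held 0.320 CPM in WT, where the δ-like ratio was 444 (77.0 to 17820), and 0 UMIs in HFD, where δ-like cells were at least 60.1-fold higher by the floor of 3 counts over the class.

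The calcium sensors were led by synaptotagmins. Syt13, a member of the family that lacks calcium binding, was the most abundant member of the whole list in β-like cells, at 215 and 212 CPM, with 186 and 142 in α-like, 182 and 180 in δ-like and 12.5 and 12.9 in non-endocrine cells. Its β-like to non-endocrine ratios were 17.2 (12.6 to 24.2) and 16.4 (10.2 to 28.2). Syt4 was at 121 and 131 CPM in β-like cells and 3.52 and 12.2 in non-endocrine cells, giving ratios of 34.3 and 10.7. Syt7, a calcium sensor of insulin and glucagon release, was at 73.8 and 60.7 CPM in β-like, 113 and 89.4 in α-like and 127 and 86.0 in δ-like cells, but also at 34.9 and 12.9 in non-endocrine cells. Within the non-endocrine cells, ductal-like cells held 76.7 and 38.4 CPM of Syt7, close to the β-like level in WT. Syt5 was at 14.1 and 18.1 CPM in β-like cells and 65.7 and 64.5 in δ-like cells, and Syt11 at 16.6 and 16.2 in β-like and 50.4 and 43.3 in α-like cells. Complexins bind the assembled SNARE complex. Cplx2 stood at 58.5 and 50.5 CPM in β-like, 118 and 108 in α-like and 153 and 137 in δ-like cells. Cplx1 had 0 UMIs in the β-like, α-like and δ-like cells of both libraries, and Cplx3, no member and named after its values were seen, had 19 UMIs in WT and 3 in HFD β-like cells. Doc2b, a soluble calcium sensor, was barely counted, with 34 UMIs in WT and 29 in HFD β-like cells.

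The Rab3 GTPases differed between endocrine classes as well as from non-endocrine cells. Rab3a stood at 72.3 and 82.7 CPM in β-like, 36.4 and 24.4 in α-like, 98.5 and 61.8 in δ-like and 27.2 and 13.7 in non-endocrine cells. Rab3d, the isoform of many exocrine granules, was at 56.6 and 76.9 in β-like, 27.0 and 26.2 in α-like, 46.0 and 24.2 in δ-like and 31.4 and 21.3 in non-endocrine cells. Rab3b (chr4:108879063-108943324, plus strand) was at 149 and 156 CPM in δ-like cells against 16.2 and 11.6 in β-like, 28.1 and 28.0 in α-like and 1.60 and 1.52 in non-endocrine cells. The δ-like to β-like ratio of Rab3b was 9.20 (7.08 to 11.8) in WT and 13.4 (10.1 to 17.5) in HFD, and 4.40 and 6.75 without hormone UMIs. Rab3c (chr13:110054187-110280996, minus strand) was at 24.6 and 21.7 CPM in α-like and 10.9 and 8.06 in δ-like cells, 0.442 and 0.239 in β-like cells and 0 UMIs in non-endocrine cells of both libraries. The α-like level of Rab3c was 55.7-fold the β-like level in WT (29.8 to 103) and 90.6-fold in HFD (47.1 to 177).

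Rab27a, a granule GTPase, was at 49.5 and 42.3 CPM in β-like, 38.7 and 41.5 in α-like and 48.2 and 53.7 in δ-like cells, against 8.01 and 6.08 in non-endocrine cells. Rab37, a related GTPase, was at 40.6 and 33.7 in β-like and 5.44 and 12.9 in non-endocrine cells. Their effectors went different ways. Sytl4 encodes granuphilin, which docks insulin granules through Rab27 and syntaxin (chrX:133936385-133981812, minus strand), and stood at 80.0 and 65.3 CPM in β-like cells but at 7.04 and 2.71 in α-like, 6.57 and 5.37 in δ-like and 6.40 and 9.12 in non-endocrine cells. It was the 1 member of 36 that passed 4-fold for β-like over α-like cells in both libraries, at 11.4 (5.22 to 31.0) and 24.1 (8.25 to 117), where 0.392% of all genes passed. It was also the 1 member of 36 over δ-like cells, at 12.2 (4.17 to 59.1) and 12.2 (3.36 to 100), where 0.295% of all genes passed. Rph3al, which encodes Noc2, another Rab3 and Rab27 effector, was at 37.1 and 32.3 in β-like, 52.8 and 35.2 in α-like and 56.9 and 43.0 in δ-like cells.

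Of the 4 priming factors, Cadps, Rims2 and Unc13a were at least 4-fold above non-endocrine cells in all 3 endocrine classes, and Unc13b in none of them. Cadps, which encodes CAPS1, was at 39.4 and 36.9 CPM in β-like and 76.2 and 47.8 in α-like cells against 1.92 and 3.80 in non-endocrine cells. Rims2, a RIM scaffold at release sites, was at 18.4 and 15.7 in β-like, 46.9 and 30.7 in α-like and 63.5 and 45.7 in δ-like cells against 2.24 and 1.52 in non-endocrine cells. Unc13a, which encodes Munc13-1 and carries the spaced motif parts printed above, was at 11.9 and 11.6 in β-like against 1.92 and 2.28 in non-endocrine cells, ratios of 6.19 and 5.10. Unc13b, which encodes Munc13-2, was at 10.0 and 9.17 in β-like and 7.68 and 6.08 in non-endocrine cells, where ductal-like cells held most of it, at 20.2 and 33.6 CPM. In δ-like cells Unc13b was at 24.1 and 24.2 CPM, 3.13-fold (1.39 to 6.65) and 3.98-fold (1.36 to 11.8) the non-endocrine level. Without hormone UMIs its β-like to non-endocrine ratios were 4.04 and 4.36.

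The granule membrane proteins Ptprn and Ptprn2 were high in all endocrine classes. Ptprn, which encodes IA-2, a receptor-like protein of dense-core granules, was at 136 and 163 CPM in β-like, 190 and 196 in α-like and 223 and 220 in δ-like cells, and 6.40 and 6.84 in non-endocrine cells. The β-like ratios were 21.3 (13.8 to 34.8) and 23.9 (12.6 to 52.2). Ptprn2, its homologue, which carries the adjacent motif parts, was at 27.3 and 24.4 in β-like, 55.1 and 52.4 in α-like and 116 and 72.5 in δ-like cells and 1.28 and 1.52 in non-endocrine cells. Slc18a1, which encodes the vesicular monoamine transporter VMAT1, was at 5.53 and 6.69 in β-like cells. Its HFD ratio to non-endocrine cells, 4.40 (1.21 to 36.5), rested on few UMIs. The genes that disassemble SNARE complexes after fusion differed less between classes. Nsf was at 21.1 CPM in β-like cells of both libraries, 34.0 and 32.5 in α-like, 37.2 and 37.6 in δ-like and 23.4 and 22.8 in non-endocrine cells. Napa, which encodes α-SNAP, was at 109 and 113 in β-like, 151 in α-like cells of both libraries, 134 and 116 in δ-like and 97.0 and 92.7 in non-endocrine cells. Their α-like to β-like ratios were 1.61 (1.08 to 2.33) and 1.54 (1.07 to 2.14) for Nsf and 1.38 (1.15 to 1.65) and 1.33 (1.13 to 1.55) for Napa. These ratios lay on the other side of 1 on the scale without hormone UMIs. There they were 0.854 and 0.873 for Nsf and 0.731 and 0.755 for Napa. Without hormone UMIs, β-like cells held 2.80 and 2.68 times the non-endocrine level of Nsf and, for Napa, 362 and 350 against 104 and 99.0 CPM on that scale.

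Shares within a family do not depend on how a class is scaled, and they were computed for 11 families. Snap25 made up 87.9% (87.0 to 88.8) of Snap25 and Snap23 UMIs in WT β-like cells and 88.4% in HFD, 94.1% and 92.2% in α-like, 97.3% and 87.0% in δ-like, and 9.22% and 11.1% in non-endocrine cells, where Snap23 held 90.8% and 88.9% (79.3 to 95.1 in HFD). The leading isoform differed from non-endocrine cells in both libraries for 4 of 11 families in β-like cells, 2 in α-like and 3 in δ-like. In β-like cells these were Snap25 over Snap23, Unc13a over Unc13b (54.3% and 55.9%, while Unc13b led in non-endocrine cells with 80.0% and 72.7%), Stxbp2 over Stxbp3 (58.1% and 63.0% against 35.4% and 32.3%) and Rab3a over Rab3d (Rab3a 49.7% and 48.2% against 45.2% and 37.5%). In the Rab3 family the non-endocrine intervals for Rab3a, 38.0 to 52.6 and 24.0 to 52.6, reached past the β-like share in both libraries.

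Within the Rab3 family the shares also differed between endocrine classes. Rab3b was 11.1% and 6.77% of Rab3 UMIs in β-like cells, 24.2% and 27.9% in α-like and 48.9% (40.4 to 57.5) and 62.4% (51.7 to 72.2) in δ-like cells. Rab3c was 21.2% and 21.6% in α-like but 0.304% and 0.139% in β-like cells. In α-like cells the 4 isoforms were near equal, from 21.2% to 31.3% in WT. Of the 2 Rab effectors, Sytl4 held 68.3% and 66.9% in β-like cells but 11.8% and 7.14% in α-like and 10.3% and 11.1% in δ-like cells, where Rph3al led.

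**Figure D2:**
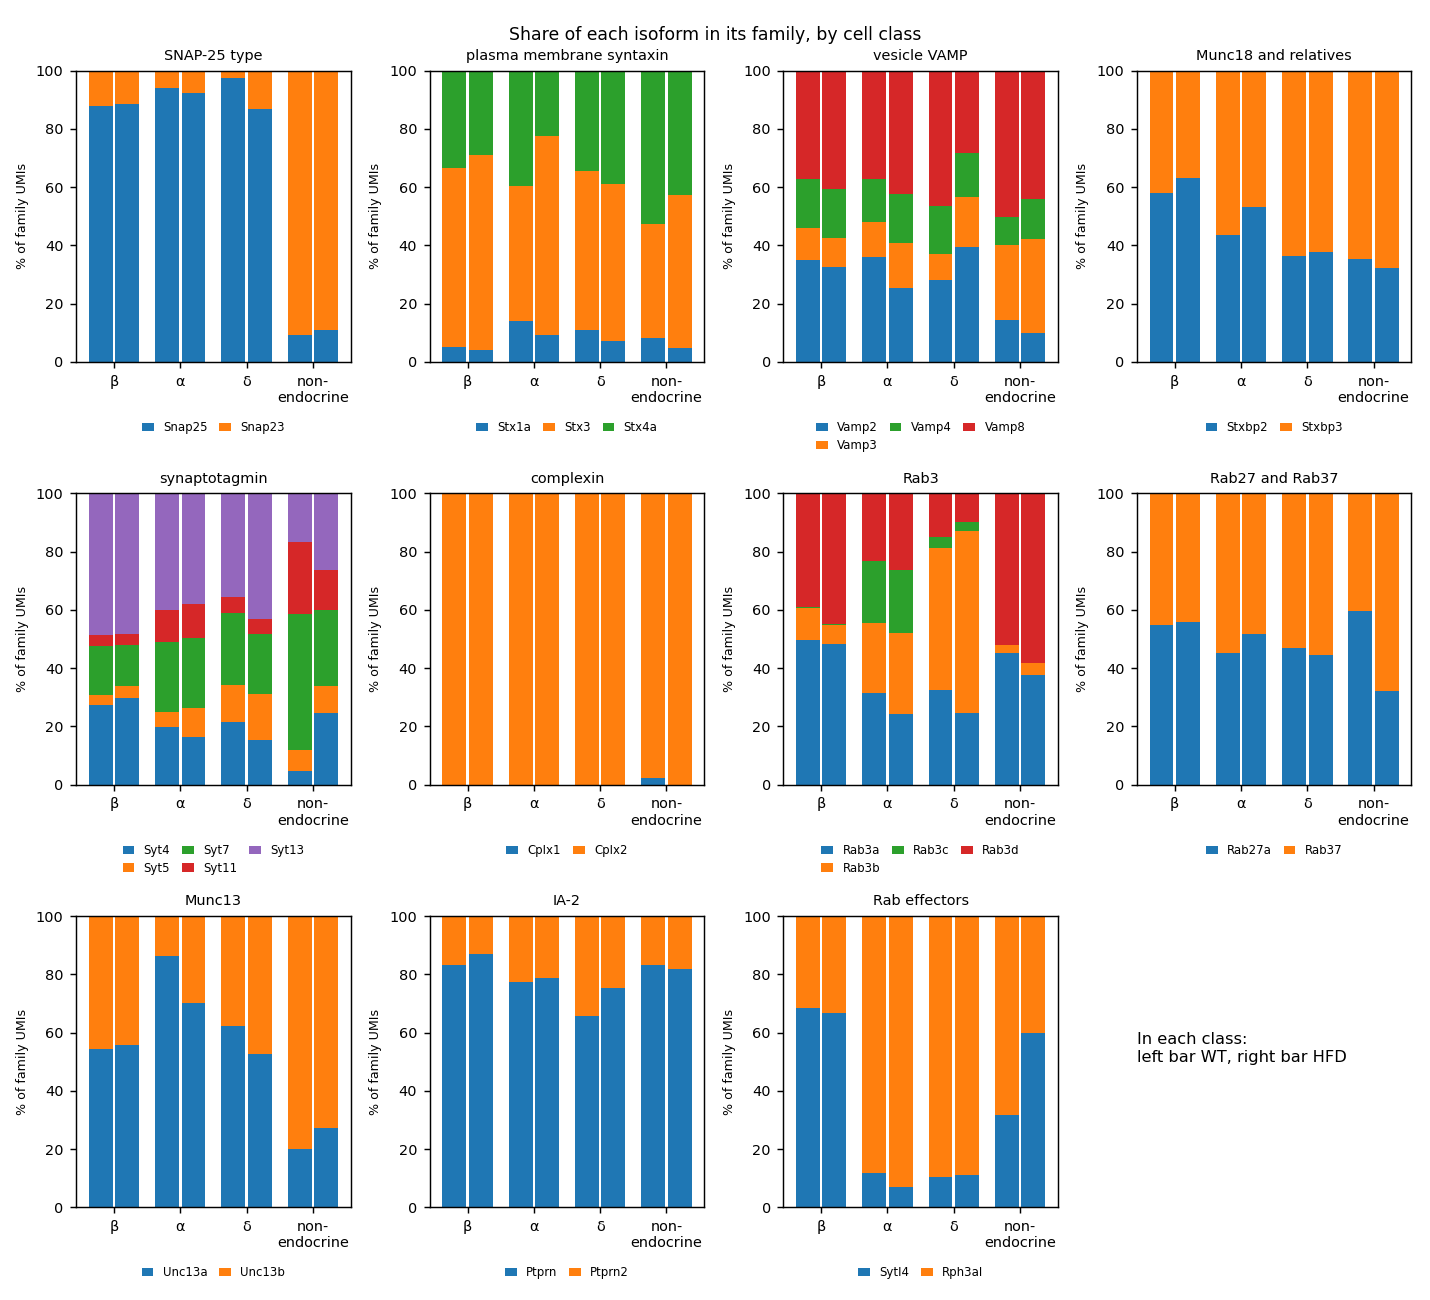
Share of each isoform in the summed UMIs of its family (percent), by cell class and library. The SNAP-25 type bars turn from Snap25 in the endocrine classes to Snap23 in non-endocrine cells, and Rab3b fills the largest part of the δ-like Rab3 bars.

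Between endocrine classes, 2 of 36 members, Stx1a and Rab3c, were at least 4-fold higher in α-like than in β-like cells in both libraries, against 5.14% of all genes, a share close to the members' own. In δ-like cells 4 members passed over β-like cells, Stx1a, Stxbp5l, Rab3b and Rab3c, against 7.16% of all genes. The δ-like to β-like ratio of Stxbp5l was 35.6 (26.6 to 47.0) in WT and 119 (82.2 to 169) in HFD. Stx1a was under 4-fold without hormone UMIs, with ratios to β-like cells between 2.61 and 3.26 in both classes. Sst, the δ hormone, gives a size for δ-cell RNA carried in β-like barcodes: it was at 459 and 167 CPM in β-like against 138762 and 157687 in δ-like cells. In that proportion δ-cell RNA would bring 0.471 and 0.145 CPM of Stxbp5l, beside a measured 4.00 and 1.16. It would bring 0.492 and 0.165 CPM of Rab3b, beside a measured 16.2 and 11.6. RNA of γ-like cells (15 WT and 24 HFD), which held 46.3 and 13.0 CPM of Stxbp5l, was not sized in this way. Where the transcripts in β-like barcodes came from was not tested.

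Free RNA in the droplets can give endocrine transcripts to non-endocrine cells, as can doublets that were not left out, and their parts were not told apart. Insulin in non-endocrine cells was 3.49% (WT) and 3.64% (HFD) of its β-like level, taken here as the measure of free RNA. By that measure 24 members had a non-endocrine level with its interval above free RNA in both libraries. The same count over all genes was not made. The 8 whose interval did not lie above it in either library were Snap25, Stxbp5l, Rab3b, Rab3c, Ptprn, Ptprn2, Cadps and Slc18a1. The Snap25 level of non-endocrine cells, 4.16 CPM (2.22 to 7.12) in WT and 6.08 (2.63 to 12.0) in HFD, was set against 2.60 and 2.85 from free RNA. In single cells thinned to 2000 UMIs, Snap25 was counted in 14.7% of WT and 13.8% of HFD β-like cells (82.6% and 60.6% unthinned, at median depths of 30602 and 11937 UMIs). In endothelial-like cells the thinned shares were 1.27% in WT and 0 of 111 cells in HFD, which allows up to 2.70% (unthinned 2.35% and 1.32%). Stxbp5l was counted in 27.5% and 24.3% of δ-like cells so thinned (64.2% and 35.3% unthinned) and in 0.757% and 0.343% of β-like cells.

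Between diets most members lay within 1.5-fold over all β-like cells. More of the members, and more of all genes, were lower in HFD when cells of like depth were compared. None of 36 members was at least 1.5-fold higher in HFD, where 6.03% of all genes were, and 3 were at least 1.5-fold lower, Stxbp5l, Rab3c and Doc2b, where 8.26% of all genes were, a share close to the members' own. Over the members the HFD to WT ratio had a median of -0.05 on the log2 scale, with 12 above and 24 below 0, beside -0.01 over 14169 genes, and 91.7% of members lay within 1.5-fold beside 85.7% of all genes. Counting error left 9 members with an interval above 1, 14 below and 13 that held 1, and the same count over all genes was not made. These intervals take no account of the spread between mice. The 1.5-fold threshold was passed downward by 13 of 35 members (24.9% of all genes) when barcodes were capped at 15000 UMIs and by 1 of 34 when at least 100 UMIs were required.

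Of the members above 1, Rab3d went from 56.6 to 76.9 CPM, a ratio of 1.36 (1.30 to 1.42). Syt5 had a ratio of 1.29 (1.18 to 1.41), Slc18a1 of 1.21 (1.05 to 1.40), Ptprn of 1.20 (1.16 to 1.23), Vamp8 of 1.15 (1.11 to 1.20) and Rab3a of 1.14 (1.10 to 1.19). Over all β-like cells Snap25 had a ratio of 1.05 (1.01 to 1.09), Vamp2 of 0.992, Stx3 of 0.995, Snap23 of 1.01 and Syt13 of 0.987, and Nsf was at 21.1 CPM in both libraries. Of these, Stx3 and Syt13 were lower in HFD at matched depth. On the lower side, Stxbp5l had 235 UMIs in WT and 87 in HFD β-like cells, a ratio of 0.289 (0.223 to 0.371). Rab3c, from 26 to 18 UMIs, had a ratio of 0.540 (0.279 to 1.02) and Doc2b 0.666 (0.391 to 1.13), so both intervals held 1. Smaller differences were seen for Rab3b at 0.717 (0.654 to 0.787), Stx1a at 0.743 (0.572 to 0.964), Sytl4 at 0.816 (0.784 to 0.849), Syt7 at 0.822 (0.789 to 0.857), Rab37 at 0.830 and Rab27a at 0.854. Scaling to UMIs without hormone and mitochondrial genes moved the median of all genes to -0.11 and of the members to -0.15 on the log2 scale, and Snap25 to -0.02. Vamp8 was lower in HFD when barcodes were capped at 15000 UMIs, with a log2 ratio of -0.25, and so was Snap25, at -0.28. Slc18a1 was lower in β-like cells of 10000 to 30000 UMIs, at -0.12, while Rab3d, Ptprn, Rab3a and Syt5 kept their direction under every alternative run. No alternative compared the libraries within a single cluster, where Ptprn and Syt5 were not higher in HFD (given below).

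**Figure D3:**
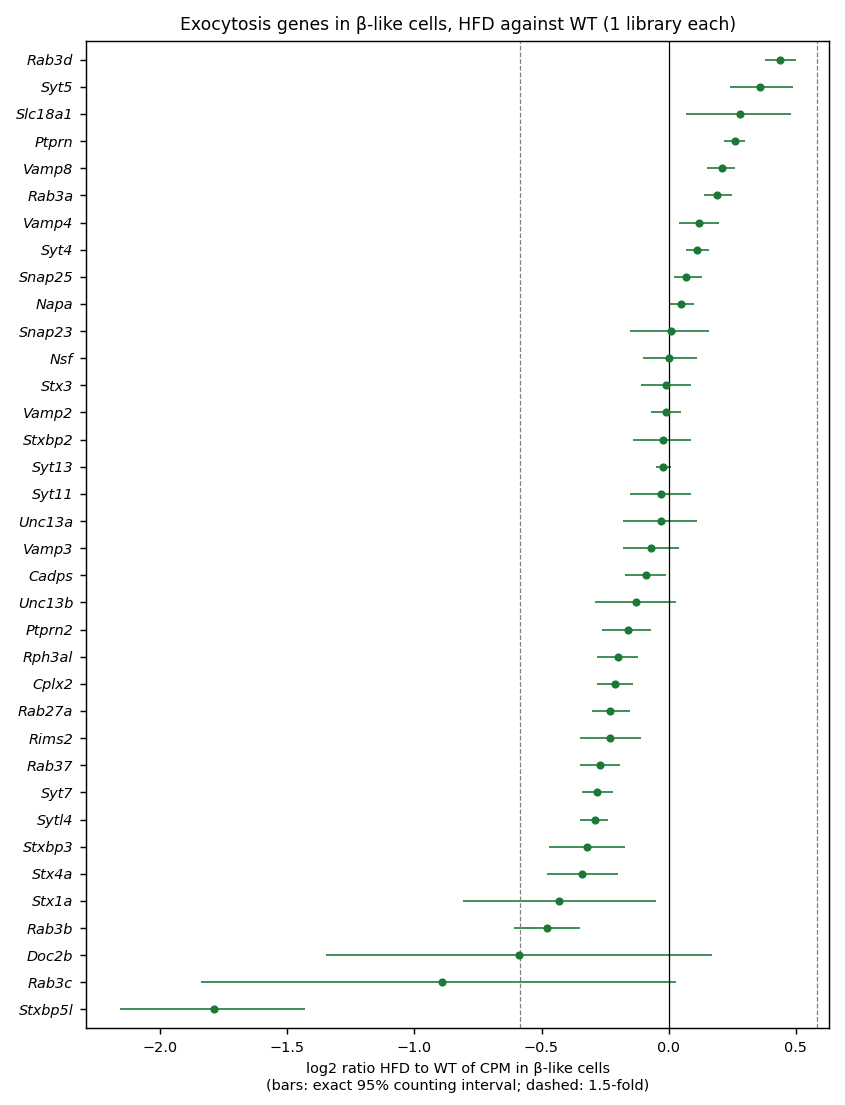
Ratio of HFD to WT level in β-like cells for the members (log scale), with exact 95% counting intervals. Stxbp5l lies farthest below 1 at 0.289 and Rab3d farthest above at 1.36.

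The libraries differed in depth, so β-like cells were also compared within the same range of UMIs. In cells of 10000 to 20000 UMIs (269 WT and 2665 HFD cells) Rab3d went from 57.1 to 77.4 CPM, and in cells of 20000 to 40000 UMIs (817 and 897 cells) from 57.3 to 79.5. Ptprn had ratios of 1.23 (1.13 to 1.34) and 1.29 (1.23 to 1.35), and Rab3a of 1.43 (1.26 to 1.64) and 1.22 (1.14 to 1.30). Stxbp5l was lower in HFD by more than in all β-like cells, from 9.63 to 0.885 CPM and from 4.79 to 1.01, ratios of 0.0920 (0.0566 to 0.148) and 0.211 (0.129 to 0.333). Rab3b had ratios of 0.403 (0.328 to 0.498) and 0.631 (0.529 to 0.750), and Sytl4 of 0.721 (0.649 to 0.802) and 0.670 (0.623 to 0.720). Snap25 lay on the other side of 1, at 0.915 (0.822 to 1.02) and 0.946 (0.884 to 1.01), with intervals that held 1. Several members with a ratio near 1 over all β-like cells were lower in HFD at 10000 to 20000 UMIs. Stx3 had a ratio of 0.671 (0.567 to 0.797), Snap23 of 0.706 (0.543 to 0.931), Syt13 of 0.806 (0.758 to 0.858) and Vamp2 of 0.862 (0.772 to 0.964) there. At 20000 to 40000 UMIs Stx3 was at 0.851 (0.755 to 0.959), Syt13 at 0.932 (0.895 to 0.970) and Vamp2 at 1.02 (0.946 to 1.09). Members already lower over all cells were lower still at 10000 to 20000 UMIs, with Stx1a at 0.423, Stxbp3 at 0.524, Syt7 at 0.571, Cplx2 at 0.572, Rims2 at 0.588 and Rph3al at 0.590. At 20000 to 40000 UMIs the ratios were 0.548 for Stxbp3, 0.812 for Syt7, 0.795 for Cplx2, 0.708 for Rims2 and 0.727 for Rph3al, and Stx1a went from 1.82 to 1.28 CPM with an interval of its ratio, 0.422 to 1.15, that held 1. Counting error left 21 of 35 members with an interval below 1 and 3 above it at 10000 to 20000 UMIs, and 18 and 6 of 36 at 20000 to 40000. The share of all genes with such intervals was not computed, so these counts do not set the members apart from other genes. In β-like cells of 10000 to 30000 UMIs 6 members were at least 1.5-fold lower, beside 14.1% of all genes, and the median log2 ratio was -0.27 beside -0.16 for all genes.

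**Figure D4:**
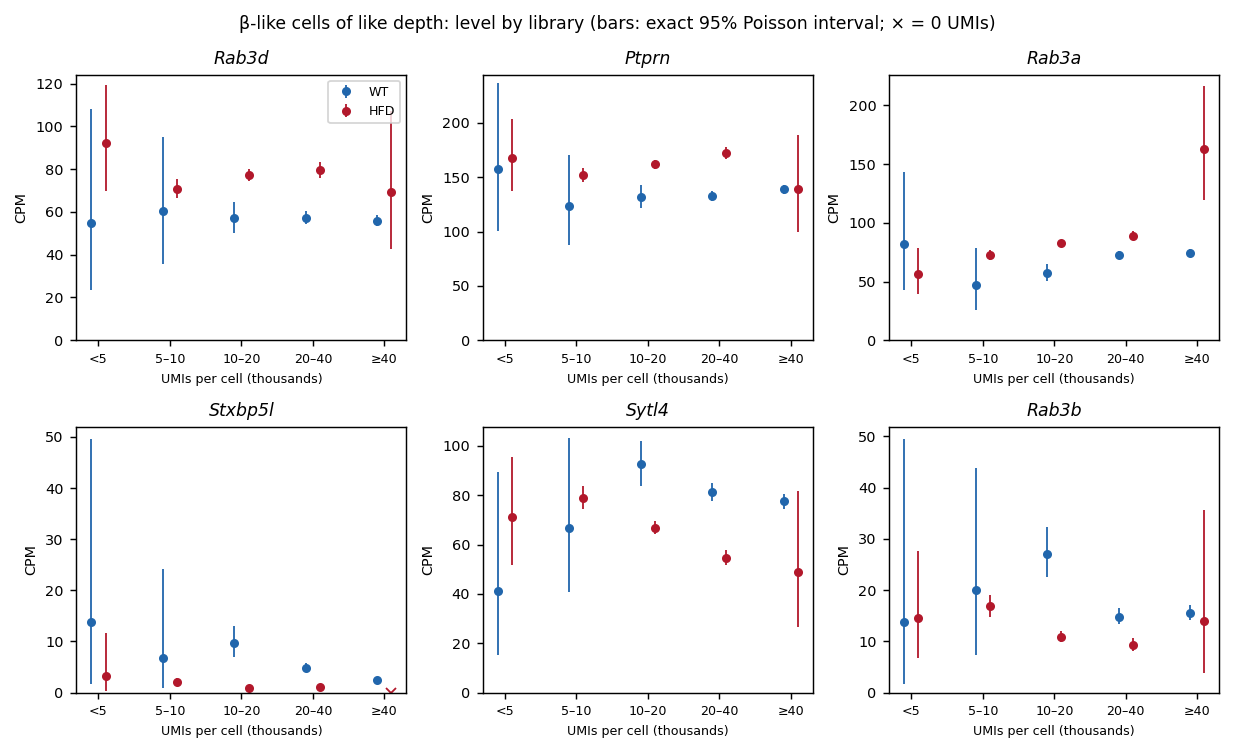
Levels of 6 members in β-like cells (CPM) by range of UMIs per cell, WT and HFD, with exact 95% counting intervals and a cross for 0 UMIs. Rab3d, Ptprn and Rab3a are higher in HFD and Stxbp5l, Rab3b and Sytl4 lower in both the 10000 to 20000 and the 20000 to 40000 range.

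Markers of other cell types also differed in β-like cells between libraries. The δ marker list summed to 490 CPM in WT and 179 in HFD, with 0 of its 4 genes higher in HFD, in the direction of Stxbp5l and Rab3b. The γ list summed to 755 and 298 and the α list to 240 and 202. Acinar markers summed to 145 and 438, with 6 of 6 higher in HFD, in the direction of Rab3d, Syt5 and Vamp8. The few acinar-like cells (10 WT and 4 HFD) held 0 UMIs of Syt5 in both libraries. They held 24.1 CPM of Rab3d in WT and 0 UMIs in HFD, and 56.2 and 35.8 CPM of Vamp8. The upper limits of the intervals were 29.6 and 65.9 CPM for Syt5 and 116 and 129 for Vamp8, past the β-like levels in both libraries. For Rab3d they were 70.4 and 65.9 CPM, past the β-like level in WT only. Erythroid markers summed to 0.936 and 33.3, and neutrophil markers were at 0 in both. What part these transcripts play in the members' ratios was not tested. A size for δ-cell RNA alone was given above, for Stxbp5l and Rab3b.

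Among β-like clusters, those with mostly HFD cells (numbers 0, 1, 2, 5, 6 and 10) and those with mostly WT cells (3, 4 and 8) were largely separate, so a diet ratio over all β-like cells compares different clusters. Members still varied within a library. In WT, Ptprn, Rab3d and Syt13 differed least between clusters, by 1.09-fold, 1.10-fold and 1.12-fold from lowest to highest. Stxbp5l ranged from 2.27 CPM in cluster 3 to 7.02 in cluster 4 (3.09-fold, 2.28 to 4.22), and Slc18a1 from 4.11 in cluster 3 to 10.9 in cluster 8 (2.66-fold, 2.04 to 3.47). Rab3a ranged from 44.2 in cluster 8 to 81.2 in cluster 3. In HFD, Sytl4 ranged from 47.9 CPM in cluster 1 to 112 in cluster 4 and Rab37 from 25.7 to 61.8 in the same clusters, while Syt4 differed by 1.15-fold. Cluster 4 was the only β-like cluster with at least 100 cells in both libraries (567 WT and 159 HFD). From WT to HFD there, Rab3d went from 53.1 to 57.6 CPM and Rab3a from 71.8 to 74.6. Ptprn went from 129 to 121 and Syt5 from 11.1 to 10.7. Stxbp5l went from 7.02 to 4.98, Rab3b from 18.0 to 23.5 and Sytl4 from 85.5 to 112. The WT and HFD intervals overlapped for each of these except Sytl4, which was higher in HFD.

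The α-like and δ-like classes were small, and wide intervals limit what they show. In α-like cells 2 of 33 members were at least 1.5-fold higher in HFD (9.05% of all genes) and 5 lower (20.6% of all genes), so neither count exceeded the background. Of the 7, the intervals excluded 1 for Stx4a at 0.546 (0.301 to 0.974), Syt4 at 0.653 (0.464 to 0.915) and Cadps at 0.628 (0.428 to 0.916). In δ-like cells 1 of 30 was higher (13.3% of all genes), Vamp3, at 1.80 (0.892 to 3.73), and 5 were lower (18.3% of all genes), both shares under the background. Among the 5 the intervals excluded 1 for Vamp8 at 0.566 (0.371 to 0.851) and Syt4 at 0.589 (0.346 to 0.977). Stxbp5l and Rab3b, both high in δ-like cells, were near level between diets there, with Stxbp5l at 0.963 (0.654 to 1.41) and Rab3b at 1.05 (0.724 to 1.51).

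The other genes of the pathway, a list of 76, were read in the same way. In β-like cells 7 of 69 were at least 4-fold above non-endocrine cells, where 2.70% of all genes were, and 10 were as far below, where 23.7% were. In α-like cells 10 of 62 were above (4.01% of all genes) and in δ-like cells 10 of 59 (5.38%). Abundant ones in β-like cells were Pclo, which encodes the scaffold piccolo, at 86.2 CPM in WT and 72.5 in HFD (17.9-fold and 13.6-fold the non-endocrine level), and Syp, the granule and synaptic vesicle protein synaptophysin, at 78.4 and 89.4 (13.6-fold and 23.5-fold). Rimbp2, a RIM-binding protein, was at 38.7 and 34.7 CPM, 17.3-fold (8.37 to 43.0) and 45.7-fold (8.19 to 1805, from 1 non-endocrine UMI) the non-endocrine level. Vti1b, a SNARE of endosomes, was at 44.5 and 46.7 CPM. Between diets in β-like cells 1 of 67 was at least 1.5-fold higher (6.03% of all genes) and 5 lower (8.26%), neither share above the background. Syt2, a fast calcium sensor, had a ratio of 0.566 (0.439 to 0.728) and Vamp5 of 0.611 (0.453 to 0.822), both at low levels. The median log2 ratio of the list was -0.02.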

How the data were processed

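The authors aligned and counted each 10x 3′ v3 library with Cell Ranger 3.0.2 against mm10, per the submitters' processing notes, and deposited UMI counts per gene and barcode, which are raw counts. Barcodes with at least 500 genes and at most 20% mitochondrial UMIs were kept, with no UMI maximum. The automatic Scrublet threshold called 12 WT and 0 HFD barcodes and was judged not to have worked, so barcodes of highest score were left out at 0.8% per 1000 barcodes (121 WT and 641 HFD, that is 3.11% and 7.16%). Of the kept barcodes' sequences 3 were shared by both libraries. Cells were clustered with scanpy 1.11.5 and leidenalg 0.10.2 on 2000 variable genes that excluded members, the pathway list and hormones. A naming rule was set after clusters were seen. UMIs were summed per class and library and given as CPM, with Poisson, conditional or Clopper-Pearson intervals at 95%, and a count of 0 was raised to a floor of 3 counts.

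With 1 library per group no test was made. On simulated counts, 2-fold changes in β-like cells were recovered for 99.0% of 200 genes among 14184, while 6.16% of unchanged genes passed 1.5-fold, and in α-like and δ-like cells 98.0% and 96.0% were recovered while 23.2% and 28.2% of unchanged genes passed. The 200 changed genes were drawn from those with at least 100 UMIs in the class over both libraries. Many members had fewer in α-like and δ-like cells, so the recovery does not apply to them. The simulated counts held counting error only, without any spread between mice or preparations. The members, lists, families and thresholds were chosen with earlier results of these data known. All members are named. Of the pathway list, the 5 of highest CPM in β-like cells and up to 5 at or past 1.5-fold between diets, each with at least 100 UMIs, are named, except 1 that is not reported here. The alternatives were other scalings (including TMM factors of edgeR 4.0.16), doublet handling, gene and UMI limits, a hormone gate, other references and added candidate clusters.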

Additional observations from a re-analysis of the deposited data

Results flagged for a closer look

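Members whose HFD to WT ratio lay on opposite sides of 1 in different classes, each with an interval that excluded 1, are listed here, and the difference between classes was not tested. Vamp8 had a ratio of 1.15 in β-like cells but 0.566 in δ-like and 0.739 in non-endocrine cells. Syt4 had a ratio of 1.08 in β-like cells but 0.653 in α-like and 0.589 in δ-like cells. Rab3a had a ratio of 1.14 in β-like and 0.503 in non-endocrine cells, and Rab37 of 0.830 in β-like and 2.37 in non-endocrine cells. Each ratio compares 1 library with 1 library, and the make-up of the non-endocrine class differed between them, with 13 T-like cells in WT and 167 in HFD.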

How the results depend on the processing

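Scaling to UMIs without hormone and mitochondrial genes moved the members at least 4-fold above non-endocrine cells in β-like cells from 13 to 21, and using no doublet scores moved them to 5 and those in α-like cells from 14 to 9. A maximum of 15000 UMIs per barcode, the one of the study's methods, moved the families with another leading isoform from 4 to 2, the members lower in HFD from 3 to 13 and their median log2 ratio from -0.05 to -0.31 (all genes -0.20). Limiting β-like cells to 10000 to 30000 UMIs moved these last values to 6 and -0.27 (all genes -0.16), and requiring 100 UMIs moved the lower count to 1. The other alternatives left these counts within 1.5-fold, including candidate clusters added to the β-like class, an alternative chosen after seeing the data, and no member was 1.5-fold higher in HFD under any. Of 393 values of single members under alternatives, 322 moved by less than their interval, 71 by more, and no value past 1.5-fold changed sign. Of 36 members, 27 kept the sign of their log2 ratio in all. No paired analysis was possible because each group has 1 library, and for the same reason no replicate could be left out. Depth limits the α-like and δ-like classes and the 6 β-like calls whose interval reached under 4-fold.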
